A study of Mus musculus with 9 samples.

Results

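The deposited expression table of lung endothelial cells held 44 rows of 9277 whose gene symbol begins with Rab followed by a digit. Of these, 36 were Rab GTPase genes. The other 7 protein-coding rows were genes of Rab-binding proteins (Rab11fip2, Rab11fip3, Rab11fip5, Rab3gap1, Rab3gap2, Rab3il1 and Rab3ip), and 1 row, Rab10os, was a transcript from the strand opposite Rab10. Rows were taken by symbol alone and not by any measured value, and Rab genes with no row in the table, such as Rab4b, Rab20 and Rab32, are not analysed here. The samples were RNA sequencing libraries of mouse lung endothelial cells: 5 from Tie1-CR mice, whose Tie1 protein resists proteolytic cleavage, and 4 from Tie1-WT (wild type) mice. All 9 library names carry PBS, so no inflammatory stimulus is recorded in the labels for either genotype. Tie1 is an orphan receptor tyrosine kinase of endothelium, and the series asks what its cleavage does to the vascular response.

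Rab proteins are small GTPases that switch between an inactive GDP-bound form in the cytosol and an active GTP-bound form on a membrane. Exchange factors load GTP, GTPase-activating proteins turn the switch off, and the active form recruits the motors, tethers and coats that move and fuse vesicles. Each Rab marks its own compartments, and membrane attachment depends on lipid groups added to cysteines at the carboxyl end. In endothelial cells, Rab5 and Rab11 proteins handle the uptake and recycling of receptors and junction proteins, and Rab27a and Rab3 proteins act on Weibel-Palade bodies, the storage granules of von Willebrand factor.

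The carboxyl-terminal codons show the shared feature of the family and its variation, so the last 30 coding bases before the stop codon are given for 5 members with the cysteine codons in capitals. They were read from GENCODE M21 transcripts on GRCm38.
Rab5a: cagccagccagaagccagTGTTGTagtaac
Rab5b: cagcagaacaagagccagTGTTGTagcaac
Rab28: cctcctcggagctccatgTGTgcagtgcag
Rab11b: cccaacaagctgcagTGCTGCcagagcctg
Rab27a: gaggagaaggagaaggggttgTGTggcTGT
All 36 GTPase genes had a cysteine codon among the last 5 codons. In 29 of them there were 2, and in 7, Rab28 included, there was 1. None of the 7 Rab-binding proteins had one. Rab5a and Rab5b share a pair of adjacent cysteine codons followed by a serine and an asparagine codon, whereas Rab27a ends on a cysteine codon. Over aligned coding sequences, with gaps counted as differences, Rab5c was 67.9% identical to Rab5a and 70.1% identical to Rab5b. The longest coding sequence of each gene was used, 702 bases for Rab5c and 645 for Rab5a and Rab5b. Gaps therefore lower both shares, which do not show Rab5c to be the most distant of the family. No 50-base stretch of Rab5c or of Rab28 occurred in another gene's transcripts. More than 10% of such stretches were shared in 7 members, among them Rab43 (74.5%), Rab24 (49.6%), Rab33b (21.3%) and Rab11b (13.6%), whose counts are less certain for it.

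Levels are in CPM, a gene's reads scaled to the total of its library, and 38208696 to 54408116 reads were counted per library. The lowest value of any member was 6.90 CPM. Counting error alone amounted to 1.01% to 5.74% of each member's value. Of 18 pan-endothelial markers, all were measured, with summed levels of 28018 to 29720 CPM in Tie1-CR and 24756 to 27817 CPM in Tie1-WT, which do not overlap. Of these 18, 16 had log2 differences above 0, with a median of 0.11, beside -0.03 over all genes. Among them, Sox18 rose (log2 difference 0.46, limma adjusted p = 0.0395). Of the 2 below 0, Erg fell (-0.41, adjusted p = 0.0052). Tie1 itself was present at 2433 ± 143 CPM in Tie1-CR (SD, n = 5), against 2136 ± 42.9 CPM in Tie1-WT (SD, n = 4), a row that does not tell the alleles apart. Transcripts of other lung cells were also present. All 6 measured type 2 pneumocyte markers of 9 listed were above 0 in log2 difference, with sums of 436 to 789 CPM in Tie1-CR and 279 to 626 CPM in Tie1-WT. The 6 measured airway epithelial markers of 8 listed were all above 0 too, with sums of 62.0 to 104.0 CPM in Tie1-CR and 19.4 to 52.5 CPM in Tie1-WT, which do not overlap. Of these epithelial markers 3 rose: Cbr2 (log2 difference 1.31), Cyp2f2 (1.14) and Sftpd (1.14), with limma adjusted p of 0.0232, 0.0428 and 0.044. Type 1 pneumocyte markers (6 of 8 measured, Cav1 and Emp2 among them) summed to 4710 to 5383 CPM in Tie1-CR and 4457 to 5489 CPM in Tie1-WT. Leukocyte markers were nearly all without a row (18 of 20), and the 2 measured, Lyz2 and Cd68, summed to 60.2 to 118 CPM in Tie1-CR and 30.6 to 76.9 CPM in Tie1-WT. These moved in opposite directions: Lyz2, also made by type 2 pneumocytes, had a log2 difference of 1.11 (limma adjusted p = 0.067), and Cd68, a macrophage marker, fell by 0.90 on the log2 scale (adjusted p = 0.0064). Whether the libraries are separate mice is not stated in the labels, and p-values therefore reflect only the scatter among these libraries, which may be technical. In RNA from many cells at once, fewer cells of a type and less RNA per cell cannot be told apart.

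Of the 44 members, 2 fell in Tie1-CR and none rose at an adjusted p under 0.05 (limma on log2(CPM + 1) over all 9277 genes, Benjamini-Hochberg adjustment). The 2 that fell were Rab5c, a GTPase of early endosomes, and Rab28, a GTPase known for its place at cilia and in photoreceptors. That is 4.55% of the members, where 2.77% of all tested genes fell. No member rose, where 1.28% of all tested genes rose. Without adjustment, 5 members were lower and 3 higher at p under 0.05, or 11.4% and 6.82% of the members, beside 14.0% and 8.27% of all genes. The same 0 higher and 2 lower were called with voom weights in place of the trended variance. No member was lost to the filter on low values.

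Rab5c measured 40.9, 37.1, 41.8, 43.7 and 47.8 CPM in Tie1-CR libraries 1 to 5, against 54.6, 56.9, 58.5 and 53.7 CPM in Tie1-WT libraries 1 to 4. Every Tie1-CR library lay below every Tie1-WT library. The means were 42.3 ± 3.94 CPM in Tie1-CR (SD, n = 5), against 55.9 ± 2.14 CPM in Tie1-WT (SD, n = 4), and the log2 difference was -0.40 (SE 0.07, 95% interval -0.55 to -0.25, limma adjusted p = 0.0111), which makes Tie1-WT 1.32-fold higher. The gene lies on the minus strand of chromosome 11, from 100715009 to 100738215 on GRCm38, and none of its exons overlaps another annotated gene. Leaving out any single library kept the call, with adjusted p between 0.00776 and 0.0450.

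Rab28 measured 39.3, 32.7, 32.9, 32.1 and 36.2 CPM in Tie1-CR libraries 1 to 5, against 45.6, 44.6, 43.3 and 44.1 CPM in Tie1-WT libraries 1 to 4. These groups did not overlap either, and the Tie1-WT libraries were the more tightly packed. The means were 34.7 ± 3.05 CPM in Tie1-CR (SD, n = 5), against 44.4 ± 0.97 CPM in Tie1-WT (SD, n = 4), and the log2 difference was -0.35 (SE 0.06, 95% interval -0.49 to -0.22, limma adjusted p = 0.0135), which makes Tie1-WT 1.28-fold higher. The gene lies on the minus strand of chromosome 5, from 41624976 to 41708157 on GRCm38, with no overlapping exons. Without Tie1-WT library 1 the log2 difference was -0.34 and the limma adjusted p 0.0643, so the call was lost. In that fit the calls over the whole table also dropped, from 119 higher and 257 lower to 6 higher and 54 lower.

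Both calls also ended when marker levels of lung epithelium entered the fit as a covariate. With all epithelial markers, Rab5c had a log2 difference of -0.44 (limma adjusted p = 0.0788) and Rab28 of -0.35 (adjusted p = 0.112). With type 2 and airway markers alone, a fit added after seeing the data, they had -0.46 (adjusted p = 0.203) and -0.33 (adjusted p = 0.323). The estimates stayed close to those without a covariate, while the calls over the whole table numbered 1 higher and 21 lower under the first fit and 1 higher and 6 lower under the second. The epithelial list also holds Cav1 and Emp2, which endothelium expresses. The part of epithelial RNA in these results was not tested further.

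**Figure D1:**
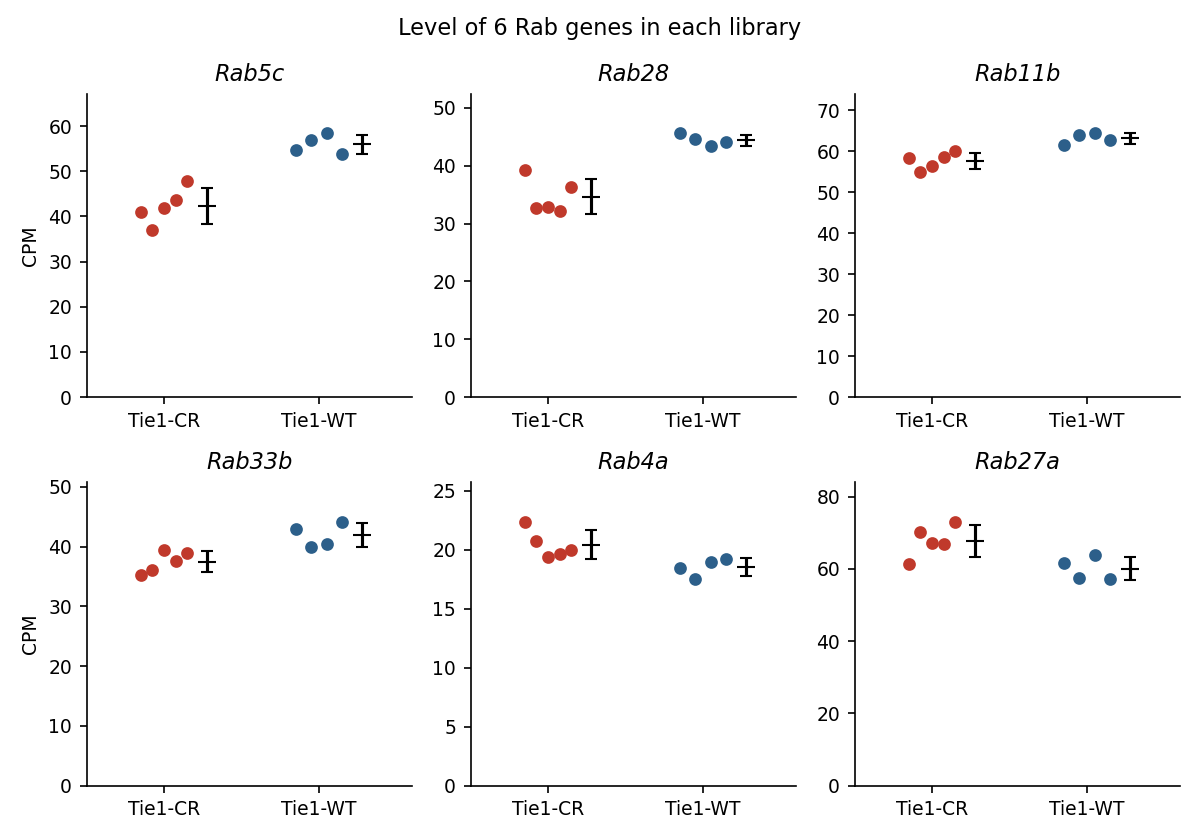
CPM in each library for 6 Rab genes, each point a library, Tie1-CR left of Tie1-WT, with the mean and SD beside the points and each axis starting at 0. Rab5c and Rab28 show 5 Tie1-CR values below all 4 Tie1-WT values, with Rab5c means of 42.3 CPM in Tie1-CR against 55.9 CPM in Tie1-WT and Rab28 means of 34.7 CPM in Tie1-CR against 44.4 CPM in Tie1-WT.

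The promoter windows of the 2 genes that fell are printed for the elements they hold. Each runs from 250 bases before to 50 bases after the gene's start and comes from RefSeq on GRCm38.p6, written on the gene's own strand. Capitals mark CCAAT boxes, the GC box GGGCGG and the YY1 letters AAGATGG, on either strand. The windows are chr11:100738166-100738465, minus strand, for Rab5c, and chr5:41708130-41708429, minus strand, for Rab28.
Rab5c: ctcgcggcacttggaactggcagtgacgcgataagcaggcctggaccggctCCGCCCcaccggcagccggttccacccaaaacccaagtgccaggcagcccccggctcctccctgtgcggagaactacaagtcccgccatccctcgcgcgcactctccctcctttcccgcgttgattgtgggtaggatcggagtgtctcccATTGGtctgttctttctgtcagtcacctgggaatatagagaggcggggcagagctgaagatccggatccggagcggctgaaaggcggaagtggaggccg
Rab28: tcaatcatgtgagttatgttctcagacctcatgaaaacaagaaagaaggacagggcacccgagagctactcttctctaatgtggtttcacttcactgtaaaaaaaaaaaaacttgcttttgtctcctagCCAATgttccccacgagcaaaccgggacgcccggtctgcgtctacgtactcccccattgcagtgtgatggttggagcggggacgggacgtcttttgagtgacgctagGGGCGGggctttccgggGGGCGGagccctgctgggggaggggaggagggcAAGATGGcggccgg
The Rab5c window had 63.3% G and C, 23 CpG dinucleotides, 1 GC box and 1 CCAAT box. The Rab28 window had 55.3% G and C, 16 CpG dinucleotides, 2 GC boxes, 1 CCAAT box and 1 YY1 motif. Neither held the E box CACGTG, the AP-1 letters TGANTCA, the EGR letters GCGTGGG or the ETS letters CCGGAAGT in these windows.

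Across the family, 40 of 44 members matched a RefSeq promoter window. A GC box stood in 34 of them (85%), beside 72.5% of the 7156 genes of the table with a window. A gene was counted if any of its windows held the box. Of all 32841 single RefSeq windows, which were not limited to genes of the table, 35.7% held the box. That share differs from the 72.5% in both gene set and counting unit. A CCAAT box stood in 22 (55%, beside 42.2% of the table's genes) and an E box in 8 (20%, beside 12.3%). AP-1 letters stood in 1 (2.5%, beside 5.88%) and EGR letters in 2 (5%, beside 10.4%). These matches are descriptions of letters in the windows and not binding sites. The 36 GTPase genes lay on 17 chromosomes.

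The early endosome group, which receives cargo taken up from the surface, held 7 measured members. Of these, 1 fell (Rab5c), none rose, and 6 had log2 differences below 0 with a group median of -0.09. Its summed level was 551 to 583 CPM in Tie1-CR and 587 to 617 CPM in Tie1-WT, without overlap. That sum includes Rab5c, the only member of the group whose genotypes did not overlap, so it does not show a lower level of the other members. Rab5a, which shares the role of Rab5c in endosome fusion, measured 97.1, 85.3, 96.7, 87.3 and 92.9 CPM in Tie1-CR libraries 1 to 5, against 96.7, 94.5, 98.3 and 99.6 CPM in Tie1-WT libraries 1 to 4. The groups overlapped (log2 difference -0.08, 95% interval -0.19 to 0.03, limma adjusted p = 0.356). Rab5b, the third member of that family, measured 33.8, 33.8, 34.3, 32.8 and 31.8 CPM in Tie1-CR libraries 1 to 5, against 31.9, 36.2, 34.8 and 36.7 CPM in Tie1-WT libraries 1 to 4, and again overlapped (log2 difference -0.06, 95% interval -0.18 to 0.05, limma adjusted p = 0.504). Rab31, which acts between the trans-Golgi and early endosomes, measured 188, 192, 195, 211 and 181 CPM in Tie1-CR libraries 1 to 5, against 217, 192, 201 and 216 CPM in Tie1-WT libraries 1 to 4 (log2 difference -0.09, 95% interval -0.22 to 0.03, limma adjusted p = 0.355). Rab21, linked to integrin uptake, had a log2 difference of -0.13, and Rab22a, of endosomal sorting, one of -0.10. Rab24, linked to autophagy, was the sole member of the group above 0 (log2 difference 0.17, 95% interval 0.01 to 0.32, limma adjusted p = 0.197), but 62.4% of its exon bases overlap Prelid1 on the opposite strand, and the kit is not stated to keep strand.

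**Figure D2:**
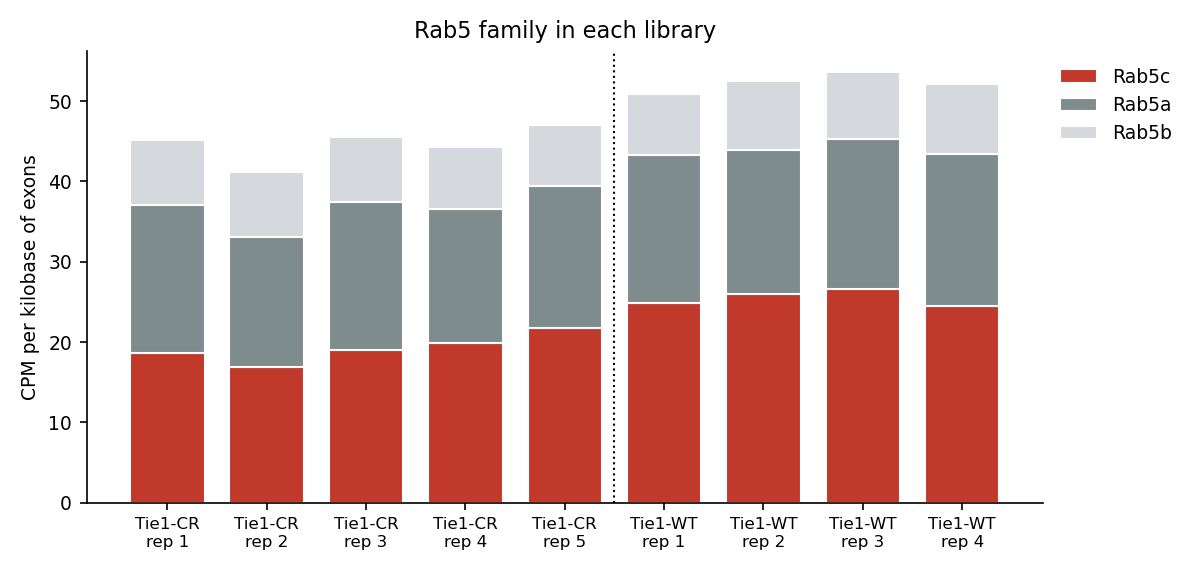
Stacked levels of Rab5c, Rab5a and Rab5b in each library, as CPM per kilobase of exon, with Tie1-CR libraries left of Tie1-WT libraries. The share of Rab5c is 41.1% to 46.4% in Tie1-CR and 47.0% to 49.7% in Tie1-WT, and the stacks reach 41.1 to 47.0 in Tie1-CR and 50.8 to 53.6 in Tie1-WT.

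Per kilobase of exon, the 3 Rab5 genes together reached 45.1, 41.1, 45.6, 44.3 and 47.0 CPM in Tie1-CR libraries 1 to 5, against 50.8, 52.5, 53.6 and 52.1 CPM in Tie1-WT libraries 1 to 4. Rab5c made up 41.3%, 41.1%, 41.8%, 45.0% and 46.4% of that level in Tie1-CR, against 49.0%, 49.4%, 49.7% and 47.0% in Tie1-WT. Whether Rab5c differed between genotypes by more than its relatives was tested on the log2 ratio within each library. The ratios reuse the values on which Rab5c was called lower, so their p-values are not separate support for that call. The log2 ratio of Rab5c to Rab5a was -1.12 ± 0.13 in Tie1-CR (SD, n = 5) and -0.80 ± 0.07 in Tie1-WT (SD, n = 4), a difference of -0.32 (two-sided exact permutation p = 0.0159, adjusted p = 0.107 over 9 pairs of relatives). The log2 ratio of Rab5c to Rab5b was 0.34 ± 0.17 in Tie1-CR (n = 5) and 0.68 ± 0.10 in Tie1-WT (n = 4), a difference of -0.34 (two-sided exact permutation p = 0.0238, adjusted p = 0.107). The ratio to Rab5a did not overlap between genotypes (-1.25 to -0.96 in Tie1-CR, -0.89 to -0.73 in Tie1-WT), and the ratio to Rab5b did (0.13 to 0.59 in Tie1-CR, 0.55 to 0.78 in Tie1-WT). Neither passed after adjustment. The smallest p that 126 splits of 9 libraries allow is 0.0079, at which a single pair alone cannot pass 0.05 after adjustment over 9 pairs, so the miss does not show that Rab5c changed like its relatives. Of the other pairs, Rab27a to Rab27b had a difference of 0.28 (exact permutation p = 0.0635, adjusted p = 0.19), and the rest had exact p between 0.214 and 0.730.

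The recycling and exocytic group held 10 members, and none passed the test. Of them, 8 had log2 differences below 0, with a median of -0.06. Rab11b, a GTPase of recycling endosomes, measured 58.4, 55.1, 56.3, 58.6 and 60.0 CPM in Tie1-CR libraries 1 to 5, against 61.7, 64.0, 64.5 and 62.7 CPM in Tie1-WT libraries 1 to 4. All Tie1-CR values lay below all Tie1-WT values, yet the difference did not pass (log2 difference -0.13, 95% interval -0.22 to -0.04, limma adjusted p = 0.106). Its relative Rab11a, the better known recycling Rab, measured 233, 198, 212, 179 and 225 CPM in Tie1-CR libraries 1 to 5, against 209, 209.6, 227 and 210.2 CPM in Tie1-WT libraries 1 to 4, with wide overlap (log2 difference -0.04, 95% interval -0.20 to 0.12, limma adjusted p = 0.805). Rab4a, which returns receptors from early endosomes to the surface by the fast route, measured 22.4, 20.8, 19.4, 19.6 and 20.0 CPM in Tie1-CR libraries 1 to 5, against 18.5, 17.5, 19.0 and 19.2 CPM in Tie1-WT libraries 1 to 4. It was the single member with every Tie1-CR library above every Tie1-WT library, and it did not pass the test (log2 difference 0.13, 95% interval 0.00 to 0.27, limma adjusted p = 0.221).

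Other members of the recycling and exocytic group showed smaller or more scattered values. Rab13, a GTPase of cell junctions and one of the lowest members, measured 8.84, 7.93, 8.39, 6.90 and 9.62 CPM in Tie1-CR libraries 1 to 5, against 9.57, 10.9, 12.2 and 9.65 CPM in Tie1-WT libraries 1 to 4 (log2 difference -0.31, 95% interval -0.55 to -0.08, limma adjusted p = 0.115). Tie1-CR library 5 lay within the Tie1-WT range. The log2 differences were 0.02 for Rab8a, -0.08 for Rab8b, -0.06 for Rab10, -0.05 for Rab12, -0.03 for Rab14 and -0.10 for Rab35, with limma adjusted p of 0.299 to 0.891. Rab8 and Rab10 proteins carry cargo to the plasma membrane, Rab14 works between Golgi and endosomes, and Rab35 in fast recycling. Rab10os, on the strand opposite Rab10, had a log2 difference of -0.10 (limma adjusted p = 0.679) and overlaps 4.07% of the Rab10 exon bases.

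The 9 Rabs of the endoplasmic reticulum and Golgi included the most abundant members, and none passed the test. Of them, 8 had log2 differences below 0, with a median of -0.10. Rab1a, required for transport from the endoplasmic reticulum to the Golgi, measured 294, 257, 288, 256 and 294 CPM in Tie1-CR libraries 1 to 5, against 311, 301, 289.8 and 298 CPM in Tie1-WT libraries 1 to 4 (log2 difference -0.11, 95% interval -0.24 to 0.01, limma adjusted p = 0.272). Tie1-CR libraries 2 and 4 were the lowest, and Tie1-CR libraries 1 and 5 lay within the Tie1-WT range. Rab33b, a Golgi Rab also linked to autophagosome formation, measured 35.2, 36.2, 39.4, 37.6 and 38.9 CPM in Tie1-CR libraries 1 to 5, against 43.0, 39.9, 40.5 and 44.2 CPM in Tie1-WT libraries 1 to 4. Its groups did not overlap, but the gap between 39.4 and 39.9 CPM was narrow and the difference did not pass (log2 difference -0.16, 95% interval -0.27 to -0.04, limma adjusted p = 0.109). The log2 differences of the others were -0.04 for Rab1b, -0.07 for Rab2a, -0.16 for Rab6a, -0.09 for Rab6b, -0.10 for Rab18, 0.03 for Rab34 and -0.23 for Rab43, with limma adjusted p of 0.257 to 0.854. Rab2a works in transport between the endoplasmic reticulum and the Golgi, and Rab6 proteins in traffic within and back from the Golgi. For Rab43, 75% of the exon bases overlap the gene model Gm45140, so its value is uncertain.

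Late endosome and lysosome Rabs were represented by 3 members, none of which passed. Rab7, the Rab of late endosomes and lysosome fusion, measured 173, 152, 159.7, 159 and 168 CPM in Tie1-CR libraries 1 to 5, against 174, 164, 170.4 and 181 CPM in Tie1-WT libraries 1 to 4 (log2 difference -0.09, 95% interval -0.20 to 0.02, limma adjusted p = 0.330). The groups overlapped. Rab9, which returns mannose 6-phosphate receptors to the Golgi, had a log2 difference of -0.06, and Rab29, a partner of the kinase LRRK2, one of 0.01.

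Regulated secretion was the one role group whose median lay above 0, at 0.06 over 4 members, and none passed. Rab27a, which anchors Weibel-Palade bodies in endothelial cells, measured 61.3, 70.1, 67.1, 67.0 and 73.1 CPM in Tie1-CR libraries 1 to 5, against 61.5, 57.6, 63.9 and 57.3 CPM in Tie1-WT libraries 1 to 4. Tie1-CR libraries 2 to 5 lay above all Tie1-WT libraries and Tie1-CR library 1 within their range (log2 difference 0.17, 95% interval 0.04 to 0.30, limma adjusted p = 0.118). The other values were log2 differences of -0.10 for Rab27b, 0.09 for Rab3a and 0.04 for Rab3d, with limma adjusted p of 0.451 to 0.815. Of 20 measured genes of Weibel-Palade cargo and release, none passed the test, 7 lay above 0 and 13 below, with a median of -0.01. Their log2 differences ran from -0.43 to 0.32. Without adjustment, 4 were higher and 4 lower at limma p under 0.05, beside 8.27% and 14.0% of all genes. Von Willebrand factor itself (Vwf) reached 3849 ± 654 CPM in Tie1-CR (SD, n = 5), against 3129.8 ± 216 CPM in Tie1-WT (SD, n = 4) (limma adjusted p = 0.198). Endothelin 1 (Edn1) reached 196 ± 26.8 CPM in Tie1-CR (SD, n = 5), against 156 ± 9.31 CPM in Tie1-WT (SD, n = 4) (limma adjusted p = 0.0729), and angiopoietin 2 (Angpt2) 69.5 ± 5.29 CPM in Tie1-CR (SD, n = 5), against 82.1 ± 9.06 CPM in Tie1-WT (SD, n = 4) (limma adjusted p = 0.111). Myrip, which binds Rab27a and links the granules to actin, stood at a mean of 70.9 CPM in both genotypes.

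Of the 3 members outside these roles, Rab28 fell. Rab23, an inhibitor of hedgehog signalling, had a log2 difference of -0.11. Rab40c, which carries a SOCS box that binds ubiquitin ligase subunits, measured 56.6, 56.6, 55.9, 58.7 and 58.0 CPM in Tie1-CR libraries 1 to 5, against 54.7, 58.3, 57.9 and 50.3 CPM in Tie1-WT libraries 1 to 4, with overlapping groups (log2 difference 0.05, 95% interval -0.06 to 0.16, limma adjusted p = 0.596).

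The 7 Rab-binding proteins did not pass the test, and 5 of them lay below 0 with a median of -0.06. Rab3gap1 and Rab3gap2 form the complex that turns off Rab3 proteins and activates Rab18. Rab3gap1 measured 65.0, 66.2, 68.6, 66.1 and 65.4 CPM in Tie1-CR libraries 1 to 5, against 69.4, 69.2, 72.7 and 65.6 CPM in Tie1-WT libraries 1 to 4 (log2 difference -0.06, 95% interval -0.16 to 0.03, limma adjusted p = 0.430). Rab3gap2 measured 68.6, 71.8, 70.6, 69.2 and 71.3 CPM in Tie1-CR libraries 1 to 5, against 65.6, 68.3, 65.3 and 70.8 CPM in Tie1-WT libraries 1 to 4 (log2 difference 0.06, 95% interval -0.04 to 0.15, limma adjusted p = 0.444). Both sets of libraries overlapped, and the intervals hold 0. The Rab11 adaptor genes had log2 differences of 0.02 for Rab11fip2, -0.02 for Rab11fip3 and -0.07 for Rab11fip5, and the exchange factor genes of -0.13 for Rab3il1 and -0.06 for Rab3ip.

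**Figure D3:**
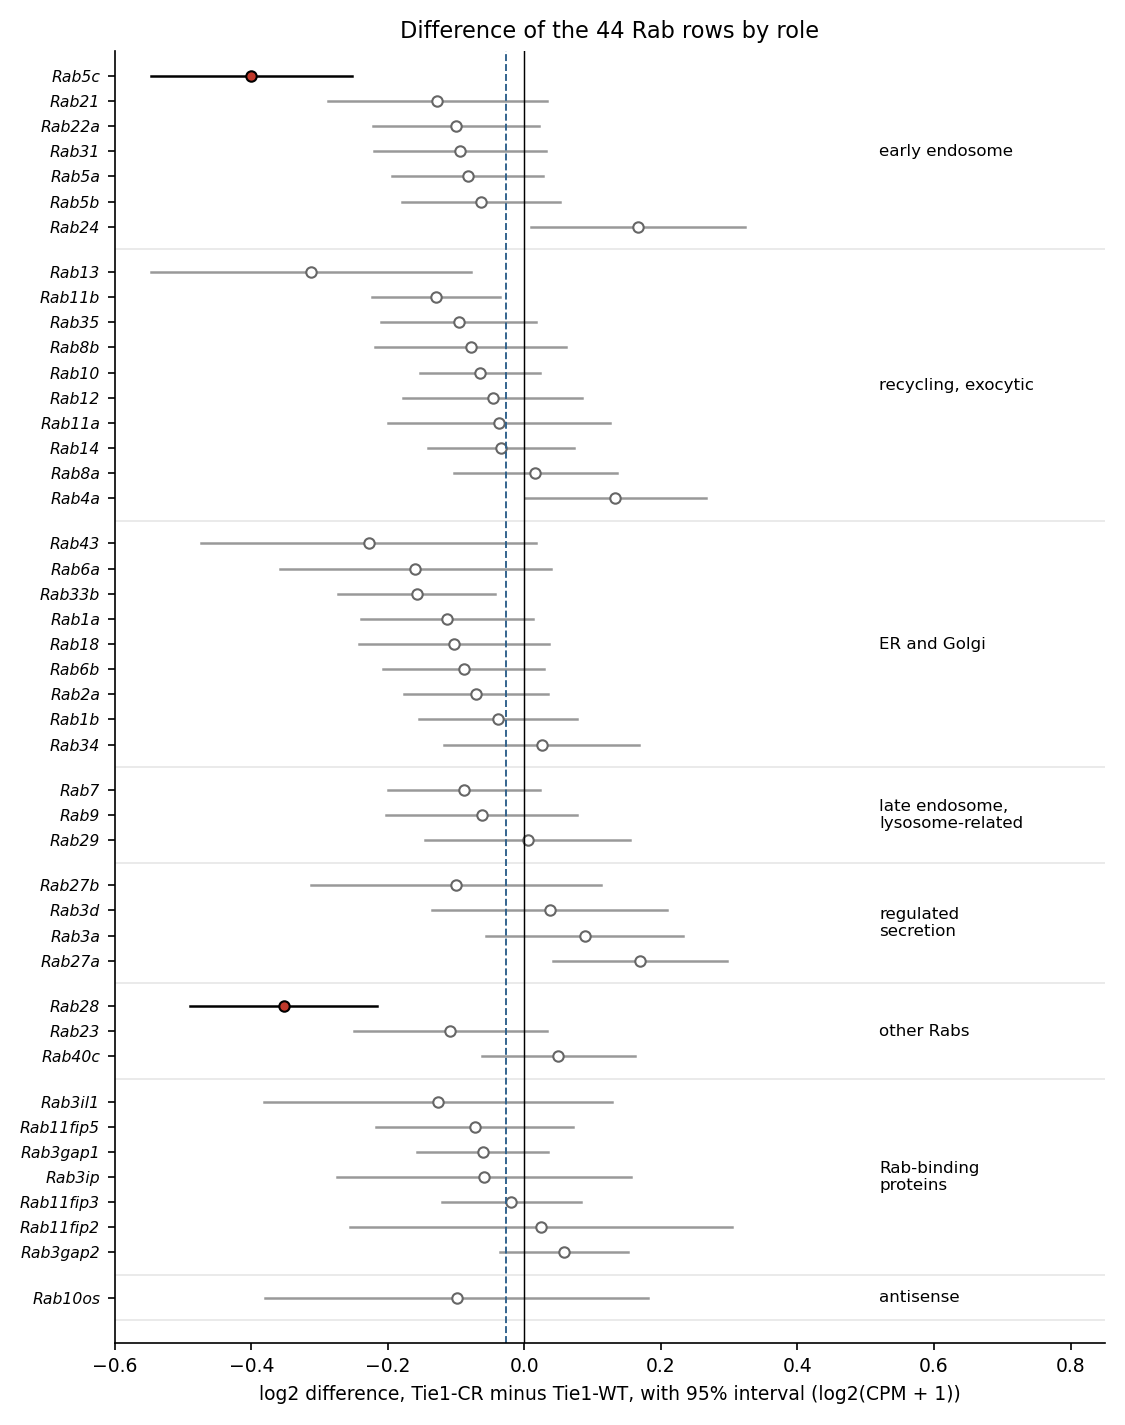
Log2 difference of Tie1-CR minus Tie1-WT for each of the 44 members with its 95% interval, grouped by role. The intervals of Rab5c, at -0.55 to -0.25, and Rab28, at -0.49 to -0.22, have the lowest upper ends, and 40 of 44 members differ by less than 0.2.

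Seen as a set, the members leaned low and by little. Of 44, 33 (75%) had a log2 difference below 0, where 58.5% of all tested genes did. The median was -0.07 over members and -0.03 over all genes. With TMM scaling the medians were -0.05 and 0.00 (32 of 44 members below 0, beside 50.7% of all genes). With correction for G and C content and exon length they were -0.02 and 0.01 (27 of 44 members below 0, beside 46.2% of the genes in that fit). The split of calls over all genes, 119 higher and 257 lower, became 184 higher and 192 lower with TMM scaling. In 40 of 44 members the difference was under 0.2 in size. Genotypes did not overlap, with Tie1-CR lower, in 4 members (Rab5c, Rab28, Rab11b and Rab33b), or 9.09%, where 6.74% of all genes did so. They did not overlap with Tie1-CR higher in 1 member (Rab4a), or 2.27%, where 3.74% of all genes did so.

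Library by library, the median log2 deviation of the members from the Tie1-WT mean was -0.04, -0.09, -0.04, -0.10 and -0.05 in Tie1-CR libraries 1 to 5, against -0.01, -0.02, 0.03 and 0.00 in Tie1-WT libraries 1 to 4. Tie1-CR libraries 2 and 4 were the lowest, and Rab1a, Rab6a, Rab11a and Rab18 were low in both. They also had the fewest counted reads of the Tie1-CR libraries (38208696 and 44346998). Tie1-WT libraries 1 and 2, with the lower medians of that genotype, had its fewest reads too (41996585 and 40136280). A part of depth in these medians was not tested. Summed over the 36 GTPases, levels were 3066 to 3356 CPM in Tie1-CR and 3300 to 3402 CPM in Tie1-WT, which overlap. The median coefficient of variation over the members was 6.77% in Tie1-CR and 4.31% in Tie1-WT, and over all genes 7.62% in Tie1-CR and 6.02% in Tie1-WT. It was larger in Tie1-CR in 34 of 44 members (77.3%), where it was larger in 64.0% of all genes.

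Levels between members were compared per kilobase of exon. The order began with Rab1b at 112 ± 7.02 CPM per kilobase of exon in Tie1-CR, against 115 ± 2.31 in Tie1-WT. Rab2a followed at 94.4 ± 5.05 CPM per kilobase of exon in Tie1-CR, against 99.1 ± 1.34 in Tie1-WT, then Rab1a at 73.1 ± 5.18 CPM per kilobase of exon in Tie1-CR, against 79.0 ± 2.26 in Tie1-WT. Rab11a, Rab7, Rab10 and Rab31 came next, and the first 7 places were held in the same order in both genotypes. Rab5c ranked 14 in Tie1-CR and 11 in Tie1-WT, at 19.3 ± 1.80 CPM per kilobase of exon in Tie1-CR, against 25.5 ± 0.98 in Tie1-WT. Rab28 ranked 33 in Tie1-CR and 30 in Tie1-WT, at 7.65 ± 0.67 CPM per kilobase of exon in Tie1-CR, against 9.81 ± 0.21 in Tie1-WT. The lowest GTPase was Rab27b, at 1.79 ± 0.15 CPM per kilobase of exon in Tie1-CR, against 1.93 ± 0.29 in Tie1-WT. From highest to lowest the levels spanned 62.7-fold in Tie1-CR and 59.5-fold in Tie1-WT. Among 35 neighbouring pairs of GTPases in that order, 10 in Tie1-CR and 19 in Tie1-WT stood apart by more than the sum of both SDs, and the rest did not differ beyond their spread.

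**Figure D4:**
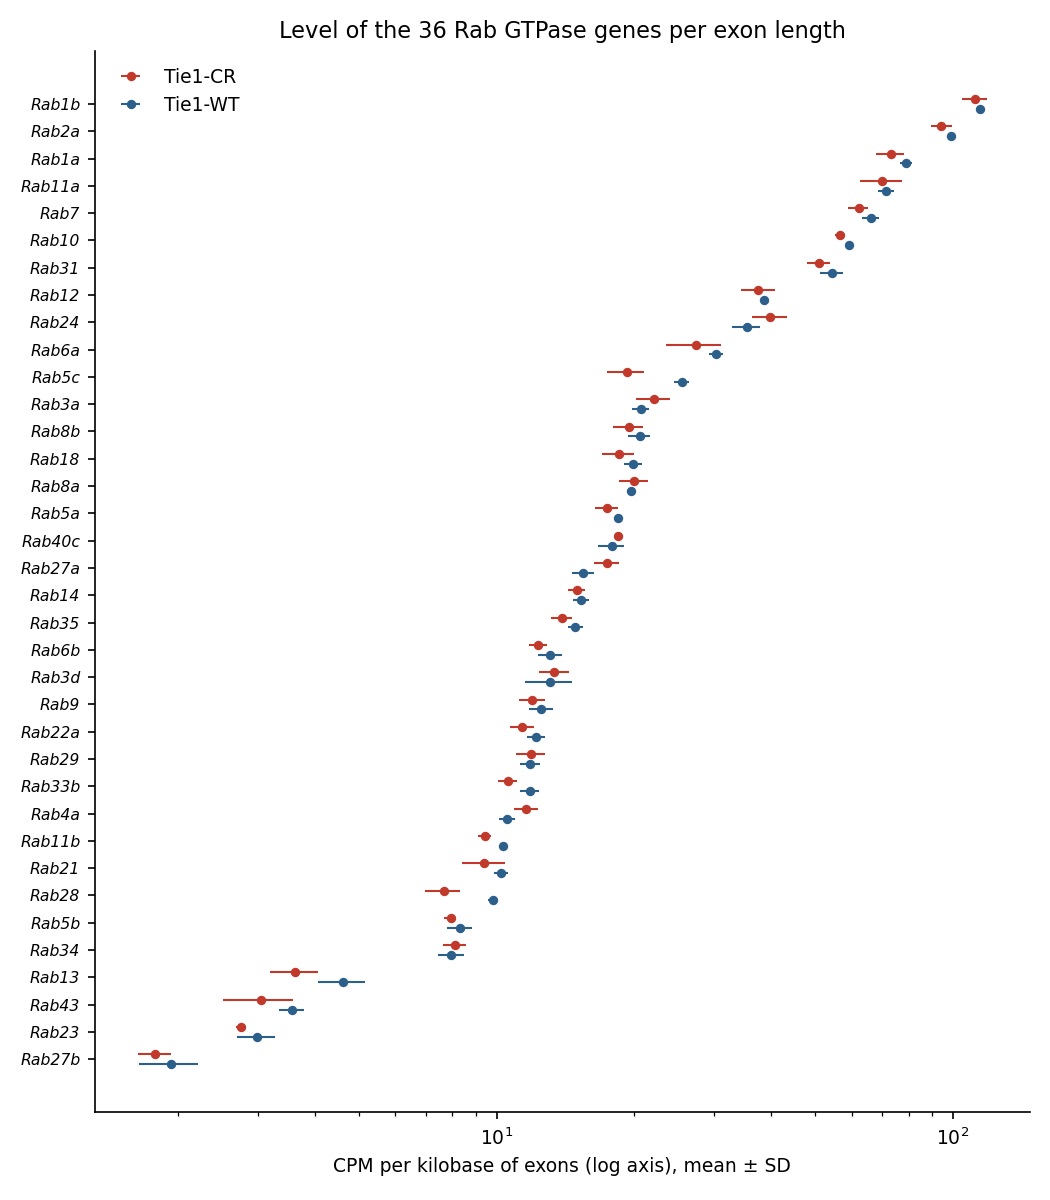
Level of each of the 36 Rab GTPase genes as CPM per kilobase of exon on a log axis, Tie1-CR above Tie1-WT in each row, with points at the mean and bars at 1 SD. Rab1b is highest at 112 in Tie1-CR and 115 in Tie1-WT, and Rab27b is the lowest GTPase at 1.79 in Tie1-CR and 1.93 in Tie1-WT.

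Other genes of the Rab cycle were taken from lists of regulators and partners. The lists were chosen with earlier results of these data known, so their shares of calls are descriptions and not tests. Counts of calls in them are to be read beside the 1.28% of all tested genes that rose and the 2.77% that fell. Of 31 measured exchange factors, 1 rose (3.23%) and none fell, with a median of 0.03. It was Rin3, which activates Rab5 proteins, at 229.6 ± 13.3 CPM in Tie1-CR (SD, n = 5), against 197 ± 8.92 CPM in Tie1-WT (SD, n = 4) (log2 difference 0.22, SE 0.06, limma adjusted p = 0.0495). Of 29 measured GTPase-activating proteins, 1 rose (3.45%) and none fell, with a median of 0.01. It was Tbc1d10a, known to act on Rab27a and Rab35, at 127 ± 11.7 CPM in Tie1-CR (SD, n = 5), against 105 ± 4.81 CPM in Tie1-WT (SD, n = 4) (log2 difference 0.26, SE 0.07, limma adjusted p = 0.0498). None passed among 13 TRAPP subunits, which load GTP on Rab1 proteins (median -0.04). The smallest p there was that of Trappc11 (log2 difference -0.10, SE 0.05, limma adjusted p = 0.249). None passed among 10 genes of prenylation, GDI and escort either (median -0.01), where Rabac1, which binds prenylated Rabs, had the smallest p (log2 difference 0.13, SE 0.06, limma adjusted p = 0.239).

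Of 46 measured effectors and tethers, 2 rose and 2 fell (4.35% each), with a median of -0.01. Plekhm1, a Rab7 effector of lysosome fusion, rose to 79.4 ± 2.91 CPM in Tie1-CR (SD, n = 5), against 67.5 ± 1.90 CPM in Tie1-WT (SD, n = 4) (log2 difference 0.23, SE 0.04, limma adjusted p = 0.0197). Ehd1, which forms recycling tubules with Rab11 and Rab8 effectors, rose to 62.2 ± 4.82 CPM in Tie1-CR (SD, n = 5), against 50.1 ± 1.92 CPM in Tie1-WT (SD, n = 4) (log2 difference 0.30, SE 0.06, limma adjusted p = 0.0206). Gcc2, a trans-Golgi tether that binds Rab6 and Rab9, fell to 19.9 ± 1.58 CPM in Tie1-CR (SD, n = 5), against 24.9 ± 1.34 CPM in Tie1-WT (SD, n = 4) (log2 difference -0.31, SE 0.07, limma adjusted p = 0.029). Vps41, a subunit of the HOPS tether that works with Rab7, fell to 54.7 ± 1.85 CPM in Tie1-CR (SD, n = 5), against 62.4 ± 1.38 CPM in Tie1-WT (SD, n = 4) (log2 difference -0.19, SE 0.04, limma adjusted p = 0.0364). Of 9 exocyst subunits, which tether vesicles at the plasma membrane downstream of Rab8 and Rab11, 2 fell (22.2%, beside 2.77% of all genes) and none rose, with a median of -0.12. Exoc1 fell to 42.8 ± 2.34 CPM in Tie1-CR (SD, n = 5), against 51.1 ± 1.72 CPM in Tie1-WT (SD, n = 4) (log2 difference -0.25, SE 0.05, limma adjusted p = 0.0241), and Exoc6, which binds Rab11 proteins, fell to 81.5 ± 2.91 CPM in Tie1-CR (SD, n = 5), against 97.8 ± 7.98 CPM in Tie1-WT (SD, n = 4) (log2 difference -0.26, SE 0.06, limma adjusted p = 0.0362).

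These 8 calls on regulators and partners depended on the libraries and on the processing. Leaving out Tie1-WT library 1 or Tie1-WT library 3 ended each of them, as did both epithelial covariates. No other left-out library ended the calls of Ehd1 (adjusted p 0.0579 and 0.0834), Plekhm1 (0.0594 and 0.0695) or Exoc1 (0.0676 and 0.0943). Gcc2 also lost its call without Tie1-CR libraries 3, 4 or 5 or Tie1-WT library 2 (0.0502 to 0.113 over all 6). Tbc1d10a lost it without Tie1-CR libraries 3, 4 or 5 or any Tie1-WT library (0.0692 to 0.155). Rin3 (0.0678 to 0.136) and Vps41 (0.0513 to 0.127) kept it only without Tie1-CR library 4, and Exoc6 (0.0512 to 0.113) only without Tie1-WT library 4. Correction for G and C content and exon length ended 6 of the 8 calls. Under it, Exoc6 had a log2 difference of -0.16 (limma adjusted p = 0.179) and Vps41 of -0.11 (adjusted p = 0.180). The adjusted p was 0.0569 for Exoc1, 0.0511 for Gcc2, 0.240 for Rin3 and 0.0846 for Tbc1d10a.

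**Figure D5:**
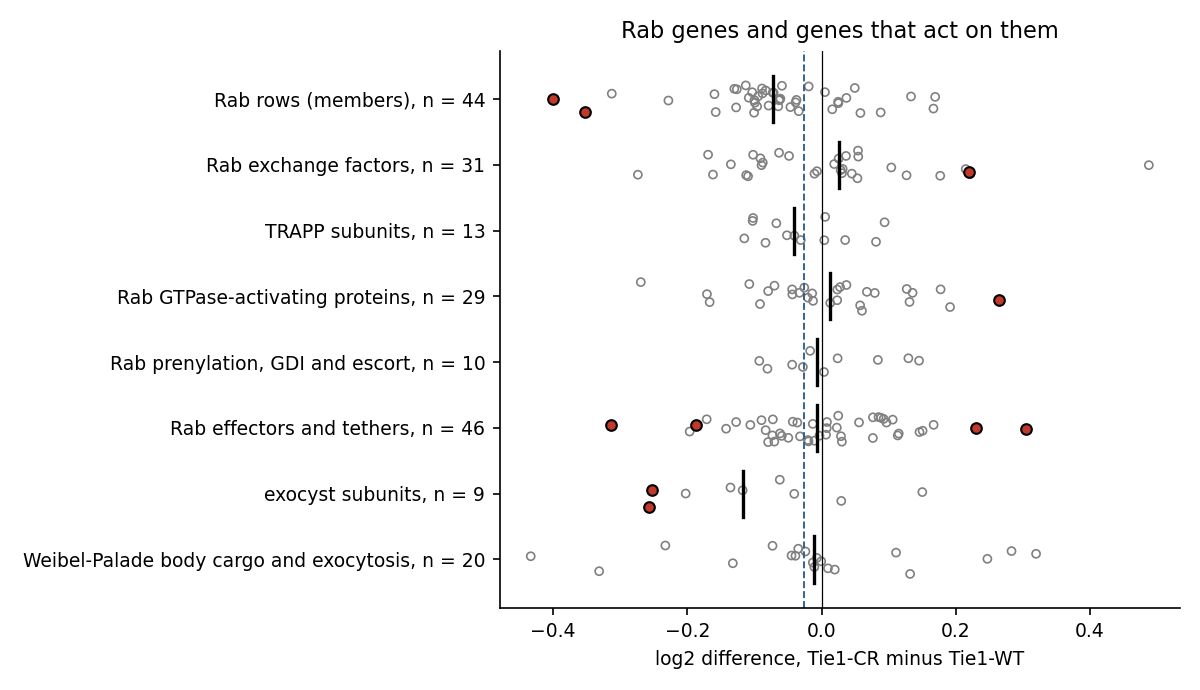
Log2 differences of Tie1-CR minus Tie1-WT for the Rab rows and the measured genes of each list of Rab regulators and partners: each point is a gene (filled where it passed the test), each short line a list's median and the dashed line the median of all genes, -0.03. Medians of the lists of regulators and partners run from -0.12 for exocyst subunits to 0.03 for exchange factors, with Ehd1 at 0.30 and Gcc2 at -0.31 among the genes that passed.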

How the data were processed

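RNA of 9 libraries of lung endothelial cells (5 Tie1-CR, 4 Tie1-WT) was extracted with a PicoPure kit and made into libraries with the SMARTer Ultra Low kit, per the labels' protocols. STAR 2.7 and the builds GRCm38.p6 and mm10 are named in the submitters' processing notes. How reads were counted, against which annotation and with what gene filter is not given in the sources used here, nor are batch, day, litter or the isolation of the cells. The numbered library names list all Tie1-WT before all Tie1-CR libraries, so any order of handling and the genotype cannot be told apart.

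The single table that the authors deposited is labelled TPM, but its values are those of CPM: in each library every value is a whole multiple of a library-specific step, within 0.01 reads. The table holds 98.3% to 98.6% of the counted reads, and the highest value of each row is at least 10.0 CPM, which leaves low genes uncovered. The test had been planned for TPM on a log scale and was used for CPM without change.

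Values were tested as log2(CPM + 1) with limma 3.58.1 in R 4.3.3, with trended empirical Bayes, over all 9277 genes that had at least 1 CPM in at least 4 libraries (0 genes removed) and with Benjamini-Hochberg adjustment at 0.05. Fold changes on this scale are slightly understated for low genes. The test was checked on simulated data. Only rises were planted there, each larger in size than the differences of Rab5c and Rab28. The check therefore does not cover changes as small as those. Ratios within gene families used two-sided exact permutation tests. Exon lengths, positions and overlaps came from GENCODE M21, which matched 9031 symbols (97.35%). Python 3.11.15, pandas 2.3.3 and matplotlib 3.10.9 were used for the rest.

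Full values by library were given for members past the threshold, members whose genotypes did not overlap, and in each role group the member with the highest mean and the one with the smallest p. Of each list of partners, up to 4 genes past the threshold were named by adjusted p, or else the one with the smallest p. Values of Rab5a, Rab5b, Rab13, Vwf, Angpt2 and Myrip, and of Tie1 and single cell type markers, were added after their values were seen. The members and gene lists were chosen with earlier results of these data known. Alternatives covered pseudocount, filter, scaling, variance model, replicate block, covariates and left-out libraries.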

Additional observations from a re-analysis of the deposited data

Results flagged for a closer look

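In 3 of the 88 sets of libraries examined (44 rows in each genotype), a single library stood far from the others of its genotype relative to the whole range, and all 3 were high values in Tie1-WT. Rab11a, the recycling endosome Rab, reached 226.85 CPM in Tie1-WT library 3, where the other Tie1-WT libraries lay between 209.28 and 210.16 CPM. Rab3d, a secretory granule Rab, reached 64.43 CPM in Tie1-WT library 3, where the others lay between 50.5 and 52.5 CPM. Rab3il1, an exchange factor gene, reached 11.188 CPM in Tie1-WT library 4, where the others lay between 9.11 and 9.43 CPM. Chance alone gives such a value in about 1 of 20 sets, or 4.4 of 88.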

How the results depend on the processing

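No member was called higher under any of the 21 alternatives run. The 2 members called lower became 0 with all epithelial markers as a covariate and 0 with type 2 and airway markers alone, and numbered 1 to 2 as each library was left out, with Rab5c remaining without Tie1-WT library 1. The median log2 difference over the members was -0.048 with TMM scaling, -0.050 with quantile normalization and -0.020 with correction for G and C content and exon length, and ran from -0.081 to -0.059 as each library was left out. Rab11a changed sign, to 0.082 with that correction and to 0.018 without Tie1-CR library 4 (range over left-out libraries -0.078 to 0.018), as did Rab3gap2, to -0.0043 with type 2 and airway markers as a covariate. None of these had passed the test, and the cause was not tested. Of the other values, 349 single-gene values kept their direction and side of the threshold, and 88 kept their direction but lost the call. A further 58 summaries kept their count or, for the median, moved by less than 0.023, the SD of the Tie1-WT library medians. Whole-table calls were 119 higher and 257 lower, and 6 higher and 54 lower without Tie1-WT library 1.

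With the replicate block, which uses replicates 1 to 4 of each genotype, 2 members were lower (Rab5c -0.44, limma adjusted p = 0.0224; Rab28 -0.37, adjusted p = 0.0333), the median was -0.08, and whole-table calls were 37 higher and 145 lower, beside 74 higher and 209 lower for the same libraries without it. Of the 8 regulators and partners named, Gcc2, Vps41, Exoc6, Rin3 and Tbc1d10a were not called in these libraries with or without the block, and Plekhm1, Ehd1 and Exoc1 were called only without it. TMM scaling ended the calls of Exoc6 and Vps41, quantile normalization those of Gcc2 and Vps41, and a pseudocount of 0.1 that of Tbc1d10a. Same-numbered libraries had correlated deviations of -0.14, 0.00, -0.06 and 0.19, so the numbers were not taken as pairs. The fits with voom, with type 2 and airway markers, with correction for base composition and length, and on replicates 1 to 4 alone were chosen after seeing the data. The planned edgeR and DESeq2 fits were not run: the values are whole multiples of a step, but the lowest lie far above 1 read, so that 1 step equals 1 read is inferred and not seen. The voom fit rests on the same inference. Counting error was at most 5.74% of any member's value, but other effects of depth were not tested.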
